A study of Mus musculus with 24 samples.

Results

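The genes described here are the host transcripts of the miR-17 family of microRNAs and the proteins that make and use microRNAs, in whole kidneys of 18-day-old C57BL/6 mice (C57BL/6 J per the methods) carrying a mutant Pkd1 gene. They comprise 10 of the 54532 genes in the count table. They were picked by name for their function, but with earlier results of these data known. The 10 are the host genes Mir17hg and Mcm7, the processing genes Drosha, Dgcr8, Xpo5 and Dicer1, and the silencing genes Ago1, Ago2, Ago3 and Tnrc6a. The study asked whether the miR-17 binding motif in the Pkd1 3′ UTR limits Pkd1 output and cyst growth. RNA-seq was run on 24 kidneys, 1 library per mouse. The RC allele is a missense Pkd1 allele that lowers the amount of mature polycystin-1, and every mouse carried 1 copy of it.

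The 3 groups labelled control, RC/+ (n = 3), RC/+ D18 (n = 3) and RC/+ D53 (n = 3), carried the RC allele over a working Pkd1 allele. The 3 groups labelled cystic, RC/- (n = 5), RC/- D18 (n = 5) and RC/- D53 (n = 5), carried it over an allele that was deleted in the kidney. Per the methods, the deletion came from a Cre driven by the Ksp (Cdh16) promoter, which is active in tubule epithelium, and the controls had the floxed allele without the Cre. The Cre and the cystic genotype can therefore not be told apart. In D18 and D53 mice the miR-17 motif had been removed from the 3′ UTR of the RC allele by genome editing. D18 and D53 each descend from 1 founder, so an effect of the edit and of a founder cannot be told apart within a line. The labels name no founder for the unedited mice.

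MicroRNAs of the miR-17 family begin as stretches of longer host transcripts. Mir17hg is a long non-coding RNA that carries the miR-17~92 cluster, and Mcm7, a subunit of the helicase that opens DNA for replication, carries the miR-106b~25 cluster within its gene. In the nucleus, the RNase III enzyme Drosha and its RNA-binding partner Dgcr8 cut the hairpin out of the host, Xpo5 (exportin-5) takes the hairpin to the cytoplasm, and Dicer1 trims it to a short duplex. An Argonaute protein (Ago1, Ago2 or Ago3) keeps 1 strand and pairs with target mRNAs, mainly through bases 2 to 8 of the microRNA, the seed. Tnrc6a (GW182) binds Argonaute and recruits the machinery that removes poly(A) tails. Of the Argonautes named here, Ago2 is the one best known for cutting its target.

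The microRNAs of both hosts are shown because they say what each host gene can deliver. The sequences were taken from RefSeq (GRCm38.p6), in which all 15 hairpin genes of the 3 mouse clusters were found. They give 13 distinct main mature sequences with 4 seeds. The seed that pairs with the motif deleted from Pkd1 belongs to 2 microRNAs of Mir17hg, 2 of Mcm7 and 2 of a further cluster on chromosome X. In the lines that follow, the sequences run 5′ to 3′ and the capitals mark the seed.
miR-17-5p (Mir17hg): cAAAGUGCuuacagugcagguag
miR-20a-5p (Mir17hg): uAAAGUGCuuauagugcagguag
miR-93-5p (Mcm7): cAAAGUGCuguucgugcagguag
miR-106b-5p (Mcm7): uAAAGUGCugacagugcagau
miR-106a-5p (chromosome X): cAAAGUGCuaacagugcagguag
miR-20b-5p (chromosome X): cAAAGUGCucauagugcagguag
miR-18a-5p (Mir17hg): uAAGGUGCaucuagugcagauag
miR-19b-3p (Mir17hg): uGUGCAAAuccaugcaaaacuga
miR-92a-3p (Mir17hg): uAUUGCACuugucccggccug
miR-25-3p (Mcm7): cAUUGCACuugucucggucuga
The seed of miR-18a-5p differs from that of miR-17-5p, and the seed of miR-92a-3p and miR-25-3p is again shared between the hosts. The miR-19 seed occurs in Mir17hg and on chromosome X, with none in Mcm7. In the GRCm38 build used by the submitters, miR-17-5p lies at chr14:115043684-115043706 on the plus strand, inside the exon sequence of Mir17hg. miR-106b-5p lies at chr5:138165787-138165807 on the minus strand, and its hairpin shares no base with an Mcm7 exon.

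The mature microRNAs themselves were not measured by these libraries. Of the 15 hairpin genes in the count table, 12 had no counted read in any library and the highest count of any of them in a library was 6. The hairpin genes of Mir17hg, Mir93 and Mir25 lie wholly inside host exons on the same strand. Reads that overlap 2 genes are not counted, so these counts do not show whether reads lay there. The values that follow are therefore levels of host and machinery mRNAs, not of microRNAs.

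The pairing site for the shared seed (GCACTTT on the mRNA strand) was searched in the longest annotated 3′ UTR of each tested gene. It was present in 13.2% of 16416 genes. The 4 sites that follow are shown because they place the same 7 letters in Pkd1 and in 3 of the genes described here, with the 7 letters in capitals.
Pkd1, chr17:24595718-24595739, plus strand: catatggggcttctGCACTTTa
Mcm7, chr5:138164630-138164651, minus strand: cattctcccatgctGCACTTTt
Ago1, chr4:126438529-126438550, minus strand: atccattgacatttGCACTTTc
Tnrc6a, chr7:123193605-123193626, plus strand: ccaggacgggccctGCACTTTg
Mcm7 holds its site in a 3′ UTR of only 136 bases, in which it is uncommon: 0.789% of 634 genes with 3′ UTRs of similar length (the shorter at least 0.8 times the longer) hold one. Ago1, Ago2 and Ago3 hold 1, 1 and 3 sites in 3′ UTRs of 4491, 11064 and 12742 bases, lengths at which 35.5%, 70.5% and 66.7% of genes hold at least 1. Tnrc6a holds 1 site in 2345 bases, at a length at which 19.8% do. The 3′ UTRs of Drosha, Dgcr8, Xpo5 and Dicer1 do not contain the 7 letters. A match of letters is a description and does not show that a site is used.

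The libraries held 20.4 M to 30.8 M counted reads, and all 10 genes were counted in every library. Levels are given as CPM, the reads of a gene scaled to 1000000 counted reads per library. Divided by kilobases of exon sequence (CPM per kb), Mcm7 had the highest level, at 13.4 ± 3.09 (SD, n = 24 libraries), and the widest spread. Drosha (9.62 ± 1.02), Ago1 (9.20 ± 1.41) and Tnrc6a (9.07 ± 1.20) followed and differed from each other by less than their spread. Xpo5 stood at 7.29 ± 0.812. Dicer1 (3.98 ± 0.430), Ago2 (3.44 ± 0.437), Mir17hg (3.18 ± 0.488) and Dgcr8 (3.04 ± 0.313) formed a lower set in which neighbours again overlapped, and Ago3 was lowest at 1.19 ± 0.185 CPM per kb. Among the Argonautes, the summed exon sequence therefore gave the order Ago1, Ago2, Ago3 in level. Mir17hg was the gene with the fewest reads per library, between 199 and 385, and every other gene among the 10 had more depth behind its values. Libraries 20 to 27, which are 3 RC/- D18 and all RC/- D53 kidneys, stood apart by skeletal muscle genes. The summed level of 6 muscle markers was 147 to 194 CPM there and 5.27 to 9.36 CPM in the other libraries. For the 10 genes, calls in RC/- D18 are also given without libraries 20 to 22 or with a term for libraries 20 to 27. RC/- D53 has no kidney outside these libraries, so only the term could be used there. RC/- D18 is the only group with kidneys inside and outside these libraries. The term was therefore set by RC/- D18 alone and carried over to RC/- D53.

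**Figure D1:**
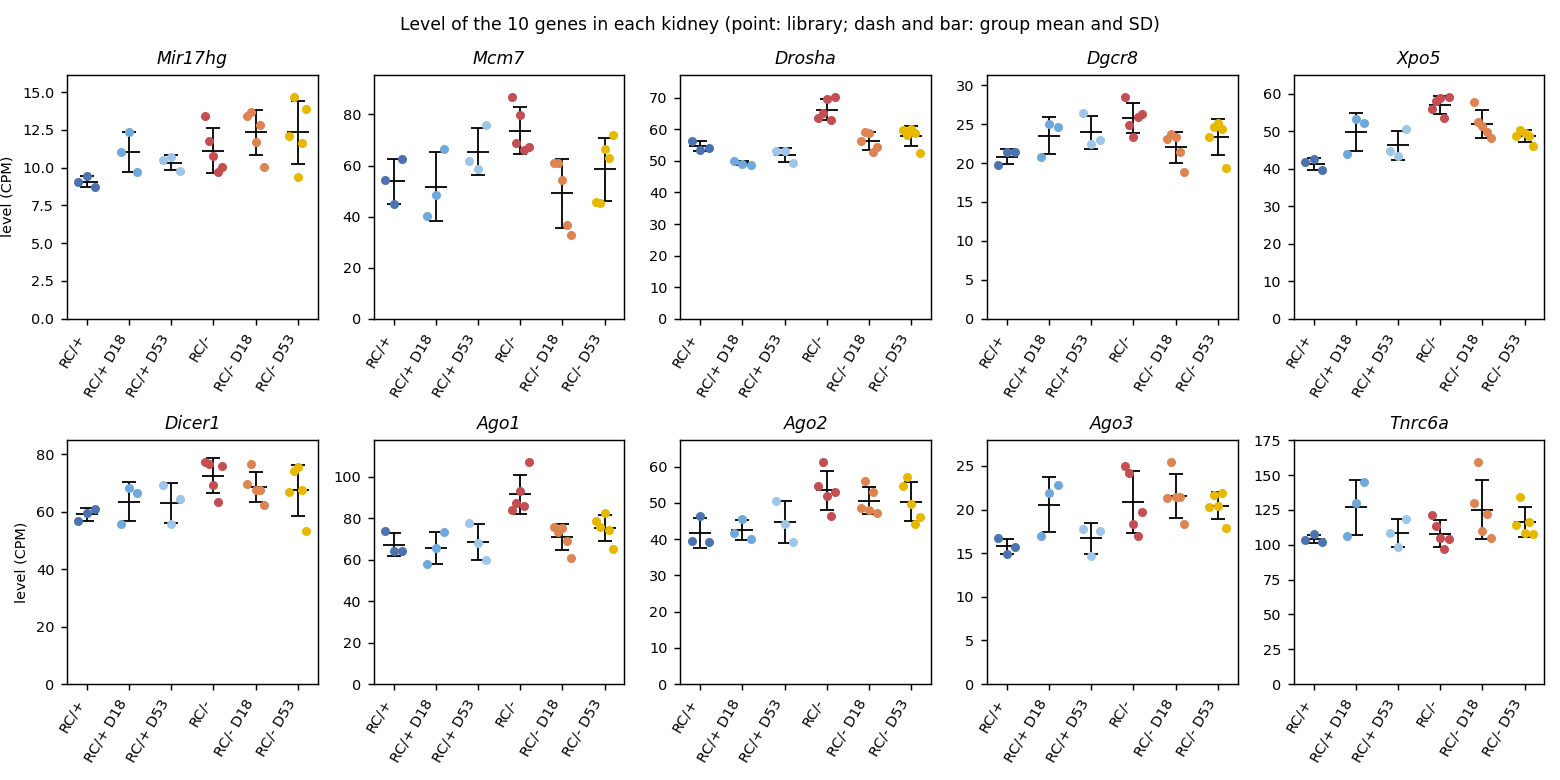
Level of each of the 10 genes in CPM (vertical axes, each starting at 0) in each of the 24 libraries by group, where points are libraries and bars mark the mean and SD. Xpo5 was 39.6 to 42.6 in RC/+ and 53.4 to 59.1 in RC/-, while Tnrc6a overlapped between these groups.

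The first comparison, RC/- against RC/+, asks how cystic kidneys differ from controls when the motif is intact. Each change is given as a log2 fold change with its SE, fitted with limma on log2 CPM over all 24 libraries, and a gene passed at a Benjamini-Hochberg adjusted p under 0.05 over all genes tested. All 10 genes had a higher fitted mean in RC/- (Tnrc6a turned with TMM factors), and 7 passed the test, all of them higher: Drosha, Dgcr8, Xpo5, Dicer1, Ago1, Ago2 and Ago3. By the same rule 25.5% of the 22570 genes tested were higher. The median log2 fold change was 0.33 over the 10 genes and 0.14 over all genes. The median shift over all genes depends on the scaling: with TMM factors, which correct for composition, it was 0.01, the median of the 10 genes was 0.19, and 2 of them, Xpo5 and Ago1, passed, where 17.1% of all genes were higher. The values of the 2 groups did not overlap for 9 of the 10 genes, Tnrc6a being the exception, against 37.6% of all genes tested. In these whole-kidney samples, fewer cells of a type and less RNA per cell cannot be told apart.

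Xpo5 (ENSMUSG00000067150, chr17:46202782-46243598, plus strand), which exports the hairpins, had the smallest adjusted p of the 10 genes. Its level was 41.8, 42.6 and 39.6 CPM in the RC/+ kidneys and 55.8, 57.9, 58.8, 53.4 and 59.1 CPM in the RC/- kidneys. Every RC/- kidney lay above every RC/+ kidney, with a gap wider than the range inside either group. The log2 fold change was 0.46 ± 0.07 (SE; adjusted p = 1.78e-05, 95% interval 0.31 to 0.61), and 0.32 with TMM factors (adjusted p = 0.000282). It lay at percentile 75.2 of the changes of all genes. The call held without each of the 8 libraries in turn.

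Drosha (ENSMUSG00000022191, chr15:12824815-12935291, plus strand) stood at 56.5, 53.4 and 54.03 CPM in RC/+ and at 63.5, 65.3, 69.5, 62.8 and 70.3 CPM in RC/-. The groups did not overlap, and the spread within each was small. The log2 fold change was 0.28 ± 0.06 (adjusted p = 0.000859) and fell to 0.14 with TMM factors (adjusted p = 0.0851). Dgcr8, the partner of Drosha, was at 19.8, 21.4 and 21.4 CPM in RC/+ and at 28.5, 24.9, 23.4, 25.9 and 26.3 CPM in RC/-, again without overlap. Its log2 fold change was 0.31 ± 0.10 (adjusted p = 0.0158), or 0.17 with TMM factors (adjusted p = 0.141). The Dgcr8 call was lost without RC/+ replicate 4 (adjusted p = 0.0758). Of the Dgcr8 exon bases, 17.1% are shared with other genes, most of them with Trmt2a on the other strand.

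Dicer1, the cytoplasmic RNase III, ranged from 56.7 to 60.98 CPM in RC/+ and from 63.4 to 77.3 CPM in RC/-. Its log2 fold change was 0.29 ± 0.10 (adjusted p = 0.0249), and 0.15 with TMM factors (adjusted p = 0.208). The call was lost without RC/+ replicate 4, RC/+ replicate 5 or RC/- replicate 13, where the adjusted p was 0.0934, 0.0591 and 0.0520. Dicer1 was thus the least stable of the processing genes under removal of a library, and Xpo5 and Drosha, whose calls held without each of the 8 libraries, the most.

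Among the silencing genes, Ago1 (ENSMUSG00000041530, chr4:126435012-126468583, minus strand) rose most in fitted change. It was at 73.7, 64.1 and 64.1 CPM in RC/+ and at 83.97, 87.3, 93.3, 85.97 and 107 CPM in RC/-. The lowest RC/- kidney was above the highest RC/+ kidney. The log2 fold change was 0.44 ± 0.10 (adjusted p = 0.00111), and 0.30 with TMM factors (adjusted p = 0.00947). Ago2 was at 39.3, 46.4 and 39.3 CPM in RC/+ and at 46.4 to 61.2 CPM in RC/-, so that its groups all but touched. Its log2 fold change was 0.36 ± 0.10 (adjusted p = 0.00605), or 0.22 with TMM factors (adjusted p = 0.105). Ago3 was at 14.95 to 16.7 CPM in RC/+ and 17.002 to 25.01 CPM in RC/-, and its log2 fold change was 0.39 ± 0.13 (adjusted p = 0.0177), or 0.25 with TMM factors (adjusted p = 0.0929). The Ago3 call was lost without RC/+ replicate 5, RC/+ replicate 6 or RC/- replicate 13 (adjusted p = 0.0749, 0.0518 and 0.0509).

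Tnrc6a did not pass the test. It was at 103, 108 and 102 CPM in RC/+ and 121, 114, 105, 96.7 and 104 CPM in RC/-, and the groups overlapped throughout. The log2 fold change was 0.05 ± 0.11 (adjusted p = 0.780, 95% interval -0.19 to 0.28), with a value of -0.09 under TMM factors, so its direction depends on the scaling.

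Neither host gene passed. Mir17hg (ENSMUSG00000089726, a lincRNA at chr14:115042879-115046727, plus strand) shares 15.2% of its exon bases with other genes, among them 6 hairpin genes on the same strand. Mcm7 (ENSMUSG00000029730, chr5:138164583-138172422, minus strand) shares 12.6%, with Mir25 and Mir93 and with its neighbours Ap4m1 and Cops6 on the other strand. Whether reads in the bases shared with opposite-strand genes were counted depends on the strand setting, which is not given in the sources used here. Mir17hg was at 9.02, 9.47 and 8.71 CPM in RC/+ and at 13.4, 11.7, 10.8, 9.70 and 10.04 CPM in RC/-. The RC/- kidneys lay above all RC/+ kidneys, but the lowest of them by little. The log2 fold change was 0.28 ± 0.13 (adjusted p = 0.102, 95% interval 0.01 to 0.56), or 0.15 with TMM factors. Mcm7 was at 54.3, 44.8 and 62.5 CPM in RC/+ and at 86.9, 68.7, 79.6, 66.1 and 67.1 CPM in RC/-, also without overlap. Its log2 fold change of 0.46 ± 0.20 matched that of Xpo5 in size, but its larger error left it at an adjusted p of 0.0767 (95% interval 0.04 to 0.87). Mcm7 passed when only the 2 groups entered the model (adjusted p = 0.0143) and when libraries 20 to 27 had a term of their own (adjusted p = 0.0454), and not with TMM factors (0.32, adjusted p = 0.196).

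Markers of other cell types moved in the same comparison. All 12 macrophage markers rose, and their summed level was 328 to 342 CPM in RC/+ and 667 to 1222 CPM in RC/-. Lyz2, a lysozyme of macrophages, rose by 2.13 on the log2 scale (adjusted p = 1.75e-10) and Fcgr1, their high-affinity Fc receptor, by 1.70. Of 8 kidney tubule and podocyte genes, 7 fell and 1 rose. Slc34a1, the proximal tubule phosphate transporter, fell by 1.58 and Slc12a3, the thiazide-sensitive transporter of the distal tubule, fell by 1.76. Of 6 lymphocyte markers, 1 fell (Cd8a, -1.85), and the summed lymphocyte level stayed below 10 CPM in every library. None of the 6 skeletal muscle markers passed limma's test (0 at an unadjusted p under 0.05), nor with edgeR or DESeq2. The part of the macrophage and tubule markers in the results for the microRNA genes was not tested.

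The second question is what the deletion of the motif does in cystic kidneys. RC/- D18 and RC/- D53 were each compared with the same 5 RC/- kidneys, so these comparisons share their control. Against RC/-, 4 of the 10 genes were lower in RC/- D18 (Mcm7, Drosha, Dgcr8 and Ago1) and 3 in RC/- D53 (Drosha, Xpo5 and Ago1). None was higher. By the same rule, 26.9% of all genes were lower in RC/- D18 and 18.9% in RC/- D53. The median log2 fold change of the 10 genes was -0.11 in D18 and -0.13 in D53, beside -0.10 and -0.08 over all genes. With TMM factors those of all genes were 0.00 and -0.01. In D18, Mcm7 and Ago1 then passed as lower, where 19.6% of genes did, and Tnrc6a as higher, where 19.6% did. In D53 none passed limma with TMM factors, where 13.4% of genes were lower. At an unadjusted p under 0.05 there were 4 of the 10, beside 8439 of the 22570 genes tested. Xpo5 and Ago1 passed with edgeR and DESeq2. Groups did not overlap for 3 of the 10 genes in D18 (Mcm7, Drosha and Ago1), against 27.8% of all genes, and for 3 in D53 (Drosha, Xpo5 and Ago1), against 18.8%.

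**Figure D2:**
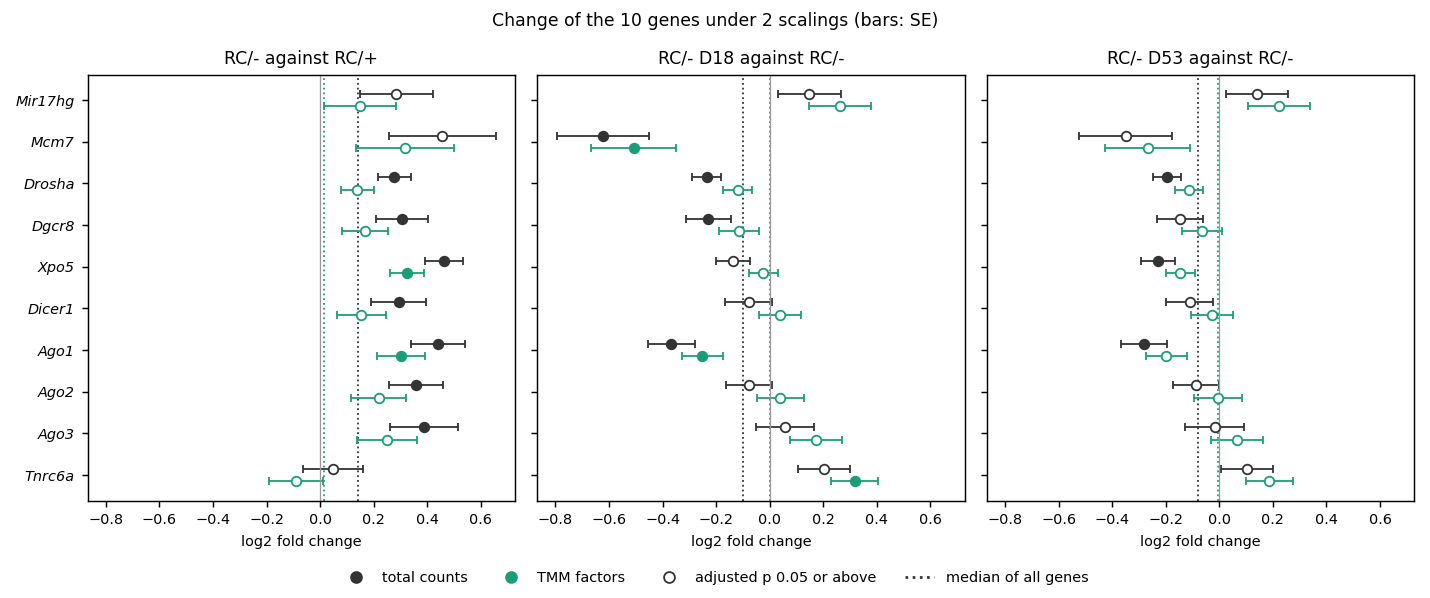
Log2 fold change and SE (horizontal axes) of each gene in RC/- against RC/+, RC/- D18 against RC/- and RC/- D53 against RC/-, with CPM from total counts (dark) and with TMM factors (green), where filled points passed at an adjusted p under 0.05 and dotted lines mark the median of all genes. The number past the test went from 7 to 2 in RC/- against RC/+ and from 3 to 0 in RC/- D53 against RC/- when TMM factors were used.

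Mcm7 had the largest change of the 10 genes in D18. It was at 61.02, 60.9, 54.3, 36.6 and 32.9 CPM in RC/- D18, all below the lowest RC/- kidney at 66.1 CPM. The values fell into 3 kidneys above 54 CPM and 2 below 37 CPM. The log2 fold change was -0.62 ± 0.17 (adjusted p = 0.00538), and -0.51 with TMM factors (adjusted p = 0.0127). RC/- D53 kidneys, at 45.6, 45.5, 66.6, 62.99 and 72.1 CPM, overlapped with RC/-, at a log2 fold change of -0.35 ± 0.17 (adjusted p = 0.137). Without libraries 20 to 22, which leaves 2 RC/- D18 kidneys, the D18 value was -0.26 (adjusted p = 0.330).

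Drosha was at 56.4, 59.1, 58.7, 52.7 and 54.5 CPM in RC/- D18 and at 59.9, 58.3, 60.1, 58.7 and 52.4 CPM in RC/- D53. All 10 of these kidneys lay below the lowest RC/- kidney, which was at 62.8 CPM. The log2 fold changes were -0.24 ± 0.05 (adjusted p = 0.000916) in D18 and -0.20 ± 0.05 (adjusted p = 0.00662) in D53. TMM factors gave -0.12 in D18 (adjusted p = 0.0761) and -0.11 in D53 (adjusted p = 0.120). Without libraries 20 to 22 the D18 value was -0.20 (adjusted p = 0.0445).

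Ago1 behaved alike in rank. RC/- D18 kidneys were at 75.8, 73.3, 75.5, 68.8 and 60.9 CPM and RC/- D53 kidneys at 78.6, 75.6, 82.6, 74.2 and 65.3 CPM, all below the lowest RC/- kidney at 83.97 CPM. The log2 fold changes were -0.37 ± 0.09 (adjusted p = 0.00137) and -0.28 ± 0.09 (adjusted p = 0.0157). TMM factors gave -0.25 in D18 (adjusted p = 0.0106) and -0.20 in D53 (adjusted p = 0.0553). The D53 call was lost without RC/- replicate 17, the highest kidney (adjusted p = 0.0617), or RC/- D53 replicate 27 (adjusted p = 0.0502). Without libraries 20 to 22 the D18 value was -0.29 (adjusted p = 0.0609).

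Xpo5 was at 57.6, 52.5, 51.3, 49.7 and 48.1 CPM in RC/- D18, where 1 kidney reached the RC/- range. It was at 48.6, 50.4, 49.6, 48.7 and 46.1 CPM in RC/- D53, all below RC/-. The log2 fold changes were -0.14 ± 0.06 (adjusted p = 0.0819) and -0.23 ± 0.06 (adjusted p = 0.00735), and with TMM factors the D53 value was -0.15 (adjusted p = 0.0525). Dgcr8, between 18.8 and 23.7 CPM in RC/- D18, changed by -0.23 ± 0.08 (adjusted p = 0.0330). With TMM factors this was -0.11 (adjusted p = 0.237), and the call was also lost without any 1 of 5 of the 10 libraries (RC/- replicates 13, 16 and 17 and RC/- D18 replicates 21 and 22).

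The remaining genes did not pass in either line with total counts. Dicer1, Ago2 and Ago3 had log2 fold changes between -0.11 and 0.06. Tnrc6a was at 129.8, 159, 110.1, 122 and 105 CPM in RC/- D18, and its change of 0.20 ± 0.10 did not pass (adjusted p = 0.104). It passed as higher with TMM factors (0.32, adjusted p = 0.00526) and without libraries 20 to 22 (0.42, adjusted p = 0.00934). The latter fit leaves only RC/- D18 replicates 18 and 19. With total counts and without replicate 19 alone, the change was 0.11. In RC/+ D18 against RC/+, Tnrc6a changed by 0.27 and did not pass (adjusted p = 0.983). Mir17hg was at 13.4, 13.7, 11.7, 12.8 and 10.1 CPM in RC/- D18 and at 12.1, 14.7, 9.38, 11.6 and 13.9 CPM in RC/- D53, overlapping with RC/- in both. Its log2 fold changes were 0.15 (adjusted p = 0.334, 95% interval -0.09 to 0.39) and 0.14 (adjusted p = 0.407, 95% interval -0.10 to 0.38).

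RC/- D53 lies wholly among libraries 20 to 27, the kidneys with muscle genes. A term for these libraries is set by the split within RC/- D18 alone, so it does not measure their effect in D53. With it, none of the 10 genes passed in D53, and 2 did in D18 (Drosha lower and Tnrc6a higher). By the same rule 1796 of the 22570 genes tested passed in either direction in D53 with the term, and 6805 without it. In D18 these numbers were 6218 and 9305. The macrophage markers moved here too. All 12 were lower in RC/- D18 and all 12 in RC/- D53, with summed levels of 399.7 to 439 CPM and 436 to 622 CPM. All 6 muscle markers rose in D53 and 5 of 6 in D18. The part of these markers in the results was not tested.

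Deletion of the motif in the absence of cystic disease was compared in RC/+ D18 and RC/+ D53, both against the same 3 RC/+ kidneys. None of the 10 genes passed limma's test in either line, where 0.00443% of all genes (1 gene) passed in RC/+ D18 and 0% in RC/+ D53. At an unadjusted p under 0.05 in limma there were 4 and 0 of the 10, beside 1013 and 525 of the 22570 genes tested. The edgeR and DESeq2 tests called none of the 10. Values did not overlap for 4 of the 10 genes in RC/+ D18, against 9.95% of all genes, and for 4 in RC/+ D53, against 8.84%. Mir17hg was among them in both lines, at 11.01, 12.3 and 9.68 CPM in RC/+ D18 and 10.5, 10.7 and 9.76 CPM in RC/+ D53, all above the highest RC/+ kidney at 9.47 CPM. Its log2 fold changes were 0.27 and 0.19. Xpo5 was also higher without overlap in both, at 43.9, 53.1 and 52.1 CPM and at 44.6, 43.3 and 50.6 CPM, with log2 fold changes of 0.26 and 0.16. Drosha was lower in both, at 49.9, 49.2 and 48.8 CPM and at 53.1, 53.2 and 49.3 CPM, with log2 fold changes of -0.15 and -0.08. The fourth was Ago3 in RC/+ D18 (0.37, higher) and Dgcr8 in RC/+ D53 (higher).

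Inside each edited line, cystic and control kidneys could be compared directly. None of the 10 genes passed in RC/- D18 against RC/+ D18, where 0.266% of all genes did, nor in RC/- D53 against RC/+ D53, where 2.60% did. At an unadjusted p under 0.05 in limma there were 2 of the 10 in each, beside 2011 of the 22570 genes tested in D18 and 3013 in D53. The edgeR and DESeq2 tests called none of the 10. The log2 fold changes of the 10 genes ranged from -0.09 to 0.25 in D18 and from -0.18 to 0.29 in D53, compared with 0.05 to 0.46 in the unedited line. All RC/- D53 kidneys and part of the RC/- D18 kidneys lie among libraries 20 to 27, and no control does. With the term for these libraries, which RC/- D18 alone sets, the ranges were -0.005 to 0.30 and 0.11 to 0.49. None then passed, with 2 and 4 at an unadjusted p under 0.05 in limma. Without the term, Xpo5 had log2 fold changes of 0.06 in D18 and 0.08 in D53. RC/- D53 against RC/- D18 gave no call among the 10 either (0.266% of all genes), with log2 fold changes from -0.10 to 0.27. None of the 10 had an unadjusted p under 0.05 in limma, beside 2993 of all genes tested, and edgeR and DESeq2 called none of the 10.

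The difference between lines in the cystic change was tested as an interaction, in which the unedited RC/- and RC/+ kidneys serve both edited lines. Xpo5 passed in both. Its cystic change was smaller than in the unedited line by a log2 difference of -0.40 ± 0.10 in D18 (adjusted p = 0.00847, 95% interval -0.61 to -0.19) and -0.38 ± 0.10 in D53 (adjusted p = 0.0163, 95% interval -0.60 to -0.17). With TMM factors both still passed (-0.30, adjusted p = 0.0237 and -0.29, adjusted p = 0.0422). All edited RC/+ kidneys lay above the unedited RC/+ kidneys in Xpo5, and 9 of the 10 edited RC/- kidneys lay below the unedited RC/- kidneys. The D53 call was lost without RC/+ D53 replicate 12 (adjusted p = 0.0678). The D18 call held without each of the 16 libraries in turn, but not without libraries 20 to 22 together (-0.31, adjusted p = 0.0970), and with a term for libraries 20 to 27 neither passed (adjusted p = 0.0786 and 0.409).

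Dgcr8 passed the interaction in D18 (-0.40 ± 0.14, adjusted p = 0.0491) and not in D53 (-0.34, adjusted p = 0.114). The D18 value with TMM factors was -0.30 (adjusted p = 0.0959), and the call held without 5 of the 16 libraries only. By the same rule, 10.8% of all genes had a lower difference in D18 and 6.55% in D53, and 7.89% and 4.50% with TMM factors. For the host genes the interaction did not pass. Mir17hg differed by -0.12 (adjusted p = 0.727, 95% interval -0.52 to 0.27) and -0.04 (adjusted p = 0.919, 95% interval -0.44 to 0.35). Mcm7 differed by -0.54 (adjusted p = 0.204) and -0.63 (adjusted p = 0.155).

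**Figure D3:**
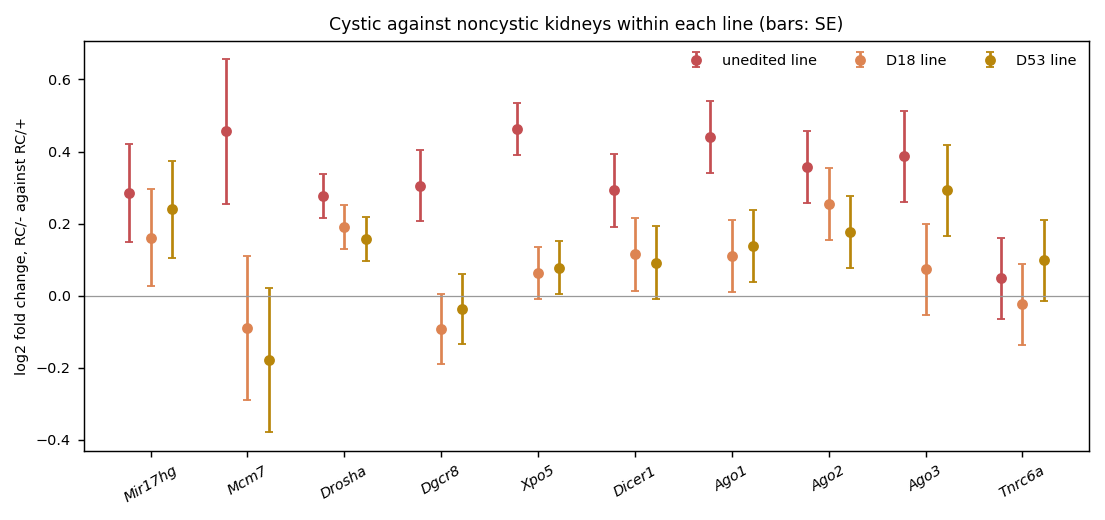
Log2 fold change and SE of RC/- against RC/+ (vertical axis) within the unedited, D18 and D53 lines for each of the 10 genes. Xpo5 was at 0.46 in the unedited line, 0.06 in D18 and 0.08 in D53.

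Both hosts were then set beside the genes whose level was most like theirs over the 24 libraries, as Pearson's r of log2 CPM. This is a description, since the libraries share depth, line and genotype. For Mcm7 the most similar genes were Mcm3 (r = 0.966), another helicase subunit, Rpa2 (r = 0.960), a subunit of the single-strand DNA binding complex, and Pkmyt1 (r = 0.954), a kinase that holds Cdk1 inactive. For Mir17hg the most similar were Pantr2 (r = 0.764), a non-coding RNA, Gm15186 (r = 0.739) and Gm20342 (r = 0.737), with lower r. The highest r was thus lower for Mir17hg than for Mcm7. Mir17hg also had fewer reads per library (199 to 385, against 921 to 2033) and a narrower range of levels (8.71 to 14.7 CPM, against 32.9 to 86.9 CPM). The part of depth and range in the lower r was not tested.

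**Figure D4:**
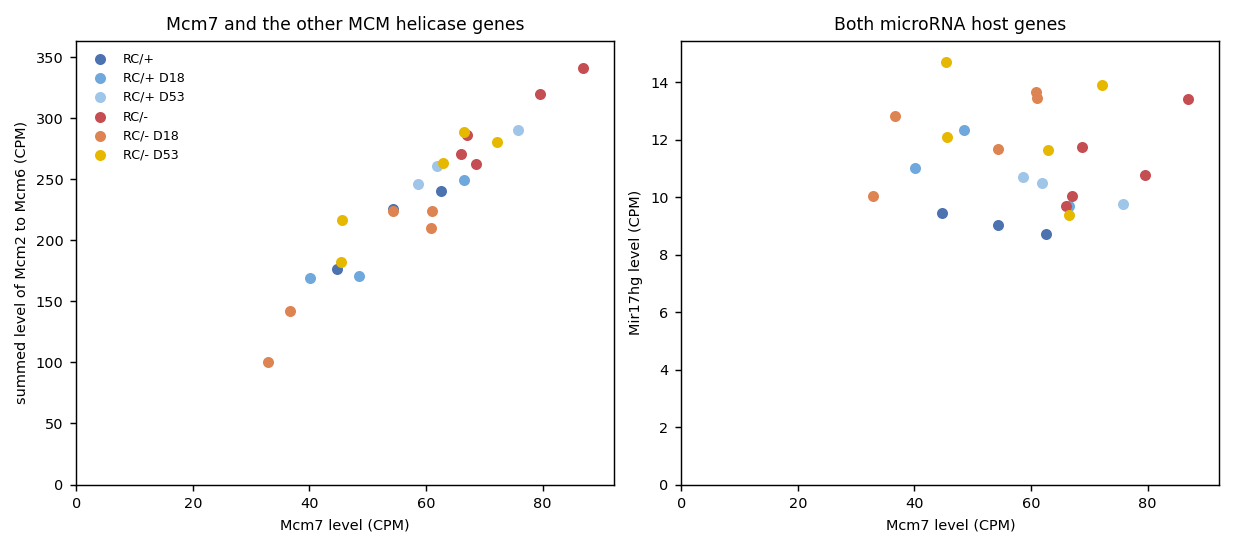
Summed CPM of Mcm2 to Mcm6 (left) and Mir17hg CPM (right), on the vertical axes, against Mcm7 level (CPM, horizontal axes) in 24 libraries. Each point is 1 library, coloured by group. The summed Mcm2 to Mcm6 level spanned 100.5 to 341 CPM, and the 2 RC/- D18 kidneys with the lowest Mcm7 also had the lowest summed level of the other subunits in that group.

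The 5 other subunits of the MCM helicase, which are needed with Mcm7 for replication, were read beside it. In RC/- against RC/+, 3 of 5 rose: Mcm2 by 0.52 (adjusted p = 0.0283), Mcm3 by 0.72 (adjusted p = 0.0377) and Mcm4 by 0.73 (adjusted p = 0.00350). Mcm5 (0.63, adjusted p = 0.0921) and Mcm6 (0.20, adjusted p = 0.435) did not pass. With TMM factors only Mcm4 did. In RC/- D18 against RC/- all 5 fell, from -0.56 for Mcm6 to -1.002 for Mcm3, with total counts and with TMM factors alike. With a term for libraries 20 to 27, 2 of the 5 passed. In RC/- D53 none of the 5 passed limma's test (2 at an unadjusted p under 0.05), nor with edgeR or DESeq2, and their log2 fold changes lay between -0.46 and -0.08. Their summed level was 177 to 240 CPM in RC/+, 263 to 341 CPM in RC/-, 100.5 to 224 CPM in RC/- D18 and 182 to 288 CPM in RC/- D53. Of 12 cell cycle genes, 10 were lower in RC/- D18. None of the 12 passed limma's test in RC/- D53 or in RC/- against RC/+ (0 and 3 at an unadjusted p under 0.05), nor with edgeR or DESeq2. With the term for libraries 20 to 27 none passed in D18, and 2 passed as higher in RC/- against RC/+. The 2 kidneys with the lowest Mcm7, RC/- D18 replicates 21 and 22, had the lowest summed cell cycle level of their group, at 303 and 170 CPM, beside 425 to 498 CPM in the other 3.

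Regulators known to act on the hosts were read as a list of 6 Myc and E2F genes. Myc, whose protein activates the miR-17~92 host, rose by 1.57 on the log2 scale in RC/- against RC/+ (adjusted p = 2.63e-08) and by 1.44 with TMM factors. It fell by 1.23 in RC/- D18 (adjusted p = 1.08e-07) and by 1.02 in RC/- D53 (adjusted p = 3.40e-06) against RC/-. With a term for libraries 20 to 27 Myc still passed in both (-1.24 and -1.05). Mir17hg did not pass in any of these comparisons. Its log2 fold change was 0.28 for RC/- against RC/+ (95% interval 0.01 to 0.56). For the D18 and D53 comparisons it was 0.15 (95% interval -0.09 to 0.39) and 0.14 (95% interval -0.10 to 0.38). Mir17hg had the least depth of the 10 genes, and these values do not show that it was unchanged. Whether Myc acted on Mir17hg was not tested. E2f3 rose by 0.34 in RC/- (adjusted p = 0.0414) and lost the call with TMM factors (0.20). The other 4, Mycl (0.78), E2f2 (0.38), E2f1 (0.24) and Mycn (-0.13), did not pass there. In RC/- D18, Mycl fell by 1.20, E2f2 by 0.56 and E2f3 by 0.35, and in RC/- D53 Mycl fell by 1.20. With the term, Mycl in D18 still passed, and the calls of E2f2 and E2f3 in D18 and of Mycl in D53 were lost. In the promoter windows of RefSeq (250 bases before to 50 after each start, both strands), the Myc motif CACGTG was in 7.15% of 32851 windows and in none of the 9 genes with an entry, Ago2 having none. An E2F motif (TTTCGCGC, TTTGGCGC or TTTCCCGC) was in 1.84% of windows, in Mcm7 as the only one of the 9, and in 4 of the 5 MCM genes with an entry, Mcm4 having none. No match says only that these letters are not in these windows.

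Other genes of the microRNA pathway were read as lists. Of the 3 close relatives not among the 10 genes, Ago4 rose in RC/- against RC/+ (0.61 ± 0.14, adjusted p = 0.00140, and 0.48 with TMM factors), while Tnrc6b (0.23, adjusted p = 0.0630) and Tnrc6c (0.22, adjusted p = 0.0774) did not pass. Ago4 fell by 0.37 in both RC/- D18 (adjusted p = 0.0193) and RC/- D53 (adjusted p = 0.0251), and passed in neither with TMM factors or with a term for libraries 20 to 27. Ago3, Ago1 and Ago4 lie next to each other on the minus strand of chromosome 4, between 126331704 and 126533472 in GRCm38. Ago2 lies apart on chromosome 15.

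Of 18 processing cofactors, 16 were tested. In RC/- 9 rose and none fell, where 25.5% of all genes rose, and 5 rose with TMM factors, where 17.1% did. Hnrnpa1, an RNA-binding protein that helps cut the miR-18a hairpin, rose by 0.75 (adjusted p = 7.56e-05) and Adar, the RNA-editing deaminase, by 0.66 (adjusted p = 0.000120). In RC/- D18 7 of the 16 were lower, where 26.9% of all genes were (5 with TMM factors, where 19.6% were, and 1 higher). In RC/- D53 6 were lower, where 18.9% of all genes were (2 with TMM factors, where 13.4% were). With the term for libraries 20 to 27 these counts were 5 and 0. Hnrnpa1 changed by -0.66 and -0.54 and Adar by -0.46 and -0.42 in the 2 lines.

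Of 24 tested genes that act with Argonaute in silencing and decay, 12 rose in RC/- and none fell, beside 25.5% of all genes that rose. With TMM factors 6 rose and 1 fell, beside 17.1% that rose. Mov10, an RNA helicase bound by Argonaute, rose by 0.51 (adjusted p = 0.000975) and Dcp1a, a decapping cofactor, by 0.50 (adjusted p = 0.000144). In RC/- D18, 11 were lower and 1 higher, or 5 lower and 3 higher with TMM factors, and in RC/- D53, 9 were lower, or 3 lower and 1 higher with TMM factors. Of all genes, 26.9% and 18.9% were lower, or 19.6% and 13.4% with TMM factors. With the term for libraries 20 to 27, 3 were lower and 1 higher in D18, and 1 was higher in D53. Mov10 changed by -0.37 and -0.36 and Dcp1a by -0.37 and -0.25.

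Of 19 tested hosts of other microRNAs, 5 rose and 2 fell in RC/- against RC/+ (2 and 2 with TMM factors). The share that rose was near the 25.5% of all genes. Dnm3os, which hosts miR-199a and miR-214, rose by 0.96 (adjusted p = 0.0258) and Evl, which hosts miR-342, by 0.77 (adjusted p = 2.67e-05). In RC/- D18, 9 were lower and 2 higher (4 and 2 with TMM factors), and in RC/- D53, 1 was lower and 2 higher, beside 26.9% and 18.9% of all genes that were lower. With the term for libraries 20 to 27, 1 was lower and 3 higher in D18, and 1 was higher in D53. In RC/+ D18 and RC/+ D53 against RC/+, no gene of these lists passed limma's test, nor edgeR or DESeq2. At an unadjusted p under 0.05 there were 2 silencing genes and 1 Myc or E2F gene in RC/+ D18, and 1 silencing gene in RC/+ D53.

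Pkd1 itself, whose 3′ UTR carries the pairing site shown above, is given here only because the design turns on it. It did not pass in RC/- against RC/+ (0.21, adjusted p = 0.173), RC/- D18 against RC/- (0.05, adjusted p = 0.766) or RC/- D53 against RC/- (-0.11, adjusted p = 0.462). In RC/+ D18 and RC/+ D53 its log2 fold changes against RC/+ were 0.28 (adjusted p = 0.983) and 0.15 (adjusted p = 1). Counts per gene pool both Pkd1 alleles, so they are no check of the edit.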

How the data were processed

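Whole-kidney RNA of 24 mice was sequenced, 1 library per mouse. The authors trimmed reads with Trim Galore 0.6.3, aligned them to GRCm38 with STAR 2.5.3a and deposited raw counts per gene (Ensembl models). Which strand column was used is not given in the sources used here. Reads that overlap 2 genes, on the strands the setting considers, or map to several places are not counted by that tool. Rows without a symbol held at most 0.0261% of a library and were left out of named results.

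Groups came from the labels. The members and gene lists were chosen with earlier results of these data known. Counts were converted to log2 CPM (total counts, prior count 2), genes with a mean under -3 were removed (22570 kept), and limma 3.58.1 (limma-trend, R 4.3.3) was fitted with 1 mean per group over all 24 libraries. Tests were two-sided, with Benjamini-Hochberg adjustment over all genes tested and a call at 0.05. Alternatives used TMM and DESeq2 size factors, the edgeR 4.0.16 quasi-likelihood test, DESeq2 1.42.0, other filters and prior counts, only the groups compared, sex read from the counts, a term for libraries 20 to 27, and each library left out. Leaving out libraries 20 to 22 was chosen after seeing the data. The text names all 10 members, all paralogues, MCM, Myc and E2F genes, and of each other list the 2 called genes with the largest change in RC/- against RC/+. Likeness names the 3 genes of highest r. Each p measures the spread between these mice. All 39 pairs of libraries within a group differed by more than sampling noise (chi-square per degree of freedom 7.81 to 43.9). The fit was tested on simulated data. In these data equal numbers of genes were raised and lowered, in RC/- only, so a shift over all genes was not tested.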

Additional observations from a re-analysis of the deposited data

Results flagged for a closer look

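Drosha in RC/- D53 replicate 27 was at 52.4 CPM, far below the other 4 kidneys of its group at 58.3 to 60.1 CPM. The gap to its neighbour took a share of 0.765 of the group's range, beyond Dixon's critical value of 0.71 for 5 samples. It was the 1 such sample among 30 groups of 5 examined over the 10 genes, where chance gives about 1 in 20. Replicate 27 was also the lowest of its group for Dgcr8, Xpo5, Dicer1, Ago1, Ago3 and Tnrc6a, and not for Mir17hg, Mcm7 or Ago2. Over all tested genes, its chi-square per degree of freedom against the other 4 kidneys was 25.5 to 40.2. Among those 4 it was 11.3 to 19.8.

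The cystic change of Xpo5 differed between the edited and unedited lines by -0.40 on the log2 scale in D18 (limma interaction, adjusted p = 0.00847) and by -0.38 in D53 (adjusted p = 0.0163). The cystic change of Dgcr8 differed by -0.40 in D18 (adjusted p = 0.0491). All 3 differences share the unedited RC/- and RC/+ kidneys. By the same rule, 10.8% of all genes had a lower difference in D18 and 6.55% in D53. With a term for libraries 20 to 27 none of the 3 passed, and the Dgcr8 call was also lost with TMM factors.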

How the results depend on the processing

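No paired analysis was possible because the labels number the libraries from 4 to 27 with no number shared between groups. Of the members in RC/- against RC/+, 7 passed with total counts, and each of TMM factors, size factors of DESeq2, the DESeq2 test and edgeR gave 2. In RC/- D18 against RC/-, the count of 4 became 2 with a term for libraries 20 to 27 and with libraries 20 to 22 left out. Both fits leave the D18 value to the kidneys outside libraries 20 to 22, so they are not separate checks. In RC/- D53 against RC/-, 3 became 0 with TMM factors and with the term for libraries 20 to 27. For the D18 interaction, 2 became 1 with TMM factors, DESeq2 size factors, edgeR, DESeq2, no filter and only the groups compared, and 0 with libraries 20 to 22 left out and with the term for libraries 20 to 27; leaving out single libraries gave 1 to 2. For the D53 interaction, 1 became 0 with that term, and leaving out single libraries gave 0 to 1. Calls over all 22570 genes, in either direction, also fell with that term, which RC/- D18 alone sets. They went from 9305 to 6218 in RC/- D18 against RC/- and from 6805 to 1796 in RC/- D53 against RC/-. For the D18 and D53 interactions they went from 3858 to 2337 and from 2545 to 403.

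Over all 10 genes and 10 comparisons, 97 of 2020 refitted log2 fold changes turned direction, none of which passed in either fit. The turns given next are those of changes named individually in the text, and others turned too, among them Mir17hg, Dicer1, Ago2 and Ago3, beside Tnrc6a, in RC/- D53 against RC/- D18 with the term for libraries 20 to 27. In the order TMM factors, DESeq2 size factors, edgeR and DESeq2, the log2 fold changes were 0.039, 0.036, 0.036 and 0.033 for Ago2 and 0.037, 0.034, 0.035 and 0.032 for Dicer1 in RC/- D18 against RC/-, 0.065, 0.058, 0.054 and 0.048 for Ago3 in RC/- D53 against RC/-, -0.091, -0.087, -0.088 and -0.084 for Tnrc6a in RC/- against RC/+, and 0.053, 0.045, 0.062 and 0.052 for the D53 interaction of Mir17hg. With the term for libraries 20 to 27, the values were 0.18 for Ago3, 0.040 for Dicer1 and 0.25 for Mcm7 in RC/- D53 against RC/-, 0.013 for Dicer1 in RC/- D18 against RC/-, 0.27 and 0.42 for Mcm7 within the D18 and D53 lines, 0.019 and 0.19 for the D18 and D53 interactions of Mir17hg, and 0.044 for Tnrc6a in RC/- D53 against RC/- D18. With libraries 20 to 22 left out, they were 0.013 for Dicer1 in RC/- D18 against RC/-, 0.27 for Mcm7 within the D18 line, -0.085 for Mcm7 in RC/- D53 against RC/- D18 and 0.019 for the D18 interaction of Mir17hg. Leaving out single libraries gave -0.012 to 0.13 for Ago3 in RC/- D18 and -0.087 to 0.052 in RC/- D53 against RC/-, -0.26 to 0.11 for Mcm7 and -0.024 to 0.11 for Xpo5 within the D18 line, and -0.11 to 0.049 for the D53 interaction of Mir17hg. The cause was not tested. Over the named changes, 1005 kept direction and call, 80 lost the call, 10 gained it and 44 turned. At 199 to 385 reads per library, Mir17hg has the least depth of the 10 genes.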
